A study of Mus musculus with 8 samples.

Results

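The genes described here belong to the bone morphogenetic protein (BMP) pathway, with those of the receptors ALK1 and BMPR2 among them. They are the ligands Bmp4 and Bmp6, the receptors Bmpr2, Acvrl1 and Eng, the signal transducer Smad1, the inhibitory Smads Smad6 and Smad7, and the targets Id1 and Id3. They were taken by symbol as 10 rows of a deposited table of 34899 genes, and all 10 passed the filter on low values. RNA-seq had been run on endothelial cells sorted from lungs, with 4 libraries from HF mice and 4 from LF mice, all female and of the strain C57BL6. HF and LF are not spelled out in the labels, and by its title the series is about obesity, neutrophil oxidative stress, inflamed vessels and the passage of metastatic cells. The age of the mice and what HF and LF mice were given are not stated in the sources used here. By the design, each group had 4 mice. Cells had been sorted as negative for CD45, the common leukocyte antigen, and positive for CD31, the endothelial adhesion molecule.

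BMP ligands bind pairs of type I and type II serine/threonine kinase receptors. Endothelial cells carry ALK1, the type I receptor encoded by Acvrl1, together with the type II receptor BMPR2 and the co-receptor endoglin, encoded by Eng. The activated type I receptor phosphorylates SMAD1, SMAD5 and SMAD9, which enter the nucleus with SMAD4 and raise transcription of the Id genes. The same signal induces SMAD6 and SMAD7, which feed back to block it. Mutations of BMPR2 are the main heritable cause of pulmonary arterial hypertension, and mutations of ACVRL1 or ENG cause hereditary haemorrhagic telangiectasia in humans.

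Promoter windows are shown for Smad6 and Bmp6, the members with the largest differences between HF and LF, and for Bmpr2 and Id3, a receptor and a target whose levels lay close together. Each runs from 250 bases before to 30 bases after the RefSeq transcription start (GRCm38.p6), 5′ to 3′ on the gene's strand. Capitals mark the Smad-binding palindrome GTCTAGAC, the GC-rich Smad element GGCGCC and its variant GGAGCC, searched on both strands.
Smad6: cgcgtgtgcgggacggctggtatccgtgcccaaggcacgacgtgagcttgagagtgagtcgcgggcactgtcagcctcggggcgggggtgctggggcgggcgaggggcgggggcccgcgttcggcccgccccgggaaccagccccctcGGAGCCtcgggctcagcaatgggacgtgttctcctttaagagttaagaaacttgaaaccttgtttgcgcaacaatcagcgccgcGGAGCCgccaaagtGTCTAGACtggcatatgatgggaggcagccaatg
Bmp6: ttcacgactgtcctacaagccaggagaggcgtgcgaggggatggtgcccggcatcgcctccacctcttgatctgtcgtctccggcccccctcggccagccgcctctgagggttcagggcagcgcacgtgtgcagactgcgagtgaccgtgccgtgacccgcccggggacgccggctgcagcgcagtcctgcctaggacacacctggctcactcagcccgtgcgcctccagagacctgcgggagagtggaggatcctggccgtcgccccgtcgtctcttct
Bmpr2: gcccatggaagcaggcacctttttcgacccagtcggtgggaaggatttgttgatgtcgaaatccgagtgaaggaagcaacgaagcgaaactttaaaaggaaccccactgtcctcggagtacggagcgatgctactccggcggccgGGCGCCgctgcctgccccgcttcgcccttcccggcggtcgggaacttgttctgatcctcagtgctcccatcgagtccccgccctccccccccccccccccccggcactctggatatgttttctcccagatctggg
Id3: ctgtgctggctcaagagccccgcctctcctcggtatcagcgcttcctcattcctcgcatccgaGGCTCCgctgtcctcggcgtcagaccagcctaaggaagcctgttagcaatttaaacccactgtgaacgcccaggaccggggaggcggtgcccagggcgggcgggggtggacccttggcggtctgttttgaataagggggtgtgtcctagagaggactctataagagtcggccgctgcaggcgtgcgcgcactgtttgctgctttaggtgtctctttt

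The Smad6 window lies at chr9:64022030-64022309 on the minus strand and holds GTCTAGAC across the start, from base -4 to base 4, with GGAGCC at -102 to -97 and at -18 to -13. The Bmp6 window, chr13:38345466-38345745 on the plus strand, holds no match. Bmpr2, at chr1:59764029-59764308 on the plus strand, has GGCGCC at -105 to -100. Id3, at chr4:136143572-136143851 on the plus strand, has GGAGCC on the other strand at -187 to -182. The Bmp6, Bmpr2 and Id3 windows lie inside the spans of these genes in the annotation GENCODE M21. Bases before those spans were not searched. Of 32851 RefSeq promoter windows of this length, 0.192% hold GTCTAGAC, 10.9% hold GGCGCC and 28.8% hold GGAGCC. None of these motifs overlap each other in the windows shown. A window was found for 7 of the 10 members, and Acvrl1, Smad7 and Id1 are named only.

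Libraries held 10631506 to 20781564 reads assigned to genes. Endothelial markers were abundant, with 8 markers including Pecam1 and Cdh5 summing to 123271 to 140276 normalised read counts in HF and 93865 to 151307 in LF. By their mean normalised count, 6 of them were higher and 2 lower in HF, and the marker counts that follow are on the same scale. Leukocyte markers summed to 3454 to 6127 in HF and 5862 to 7269 in LF, and 8 of 8 had the lower mean in HF. Airway and alveolar epithelial markers summed to 9539 to 17984 in HF and 12465 to 25511 in LF, and 8 of 8 had the lower mean in HF. Fibroblast markers (6 of 8 lower) summed to 6168 to 9390.2 in HF and 9067 to 12205 in LF, and markers of pericytes and smooth muscle (7 of 8 lower) to 1933 to 2332 in HF and 2299 to 3784 in LF. Erythrocyte markers (4 of 4 lower) summed to 16576 to 18828 in HF and 17748 to 33858 in LF. Their sums were highest in LF 3 (33858) and LF 4 (26269), while LF 1 (17748) and LF 2 (18737) lay in the HF range. Markers of lymphatic endothelium (4 of 8 lower) summed to 11851 to 13492 in HF and 10734 to 13134 in LF. Of all these markers, Cd3e and Ccl21a alone were at 0 in some library. On the first principal component LF 1 (-56.4) and LF 2 (-50.9) lay far from the other libraries (-6.79 to 39.6). For this reason the members are also given without a pair of LF libraries. On the second component LF 3 (-38.5) and LF 4 (-34.2) lay apart from the others (-1.41 to 29.6). Whether the LF libraries differ through the mice, the sort or the preparation was not tested. In sorted cells, fewer cells of a type and less RNA per cell cannot be told apart.

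Each of the 10 members was higher in HF by its mean normalised count and by its mean log2 value. By log2 fold change, 6 of the 10 were higher without LF 1 and LF 2. Under quantile normalisation 7 were higher, and without LF 2 alone 8 were. The members' median log2 fold change was 0.25, and that of all 17067 genes tested was 0.02. Of all genes tested, 53.2% were higher in HF by the mean log2 value. The median was 0.075 over genes with a mean of at least 50 normalised counts, and 0.19 over the 8 endothelial markers. No member passed limma's moderated test at a Benjamini-Hochberg adjusted p under 0.05. That test called 0 genes (0% of those tested) in the whole table and had 1882 at an unadjusted p under 0.05. edgeR on the recovered reads also called 0, with 1905 at an unadjusted p under 0.05. Of these members, 3 had an unadjusted limma p under 0.05 with HF higher (Bmp6, Smad1 and Smad6), where 6.36% of all genes did. HF values lay entirely above LF values in 2 members, Bmp6 and Smad1, where 3.47% of all genes were arranged so. The authors' deposited table, for which the submitters' processing notes name DESeq2, lists 2 members at an adjusted p under 0.05, Bmp6 (0.00534) and Smad6 (0.0394), where 1.58% of its genes with an adjusted p were listed as higher in HF. DESeq2 run on the recovered reads called Bmp6 (adjusted p = 0.00808), with 1.57% of genes called higher, and gave Smad6 an adjusted p of 0.0600.

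**Figure D1:**
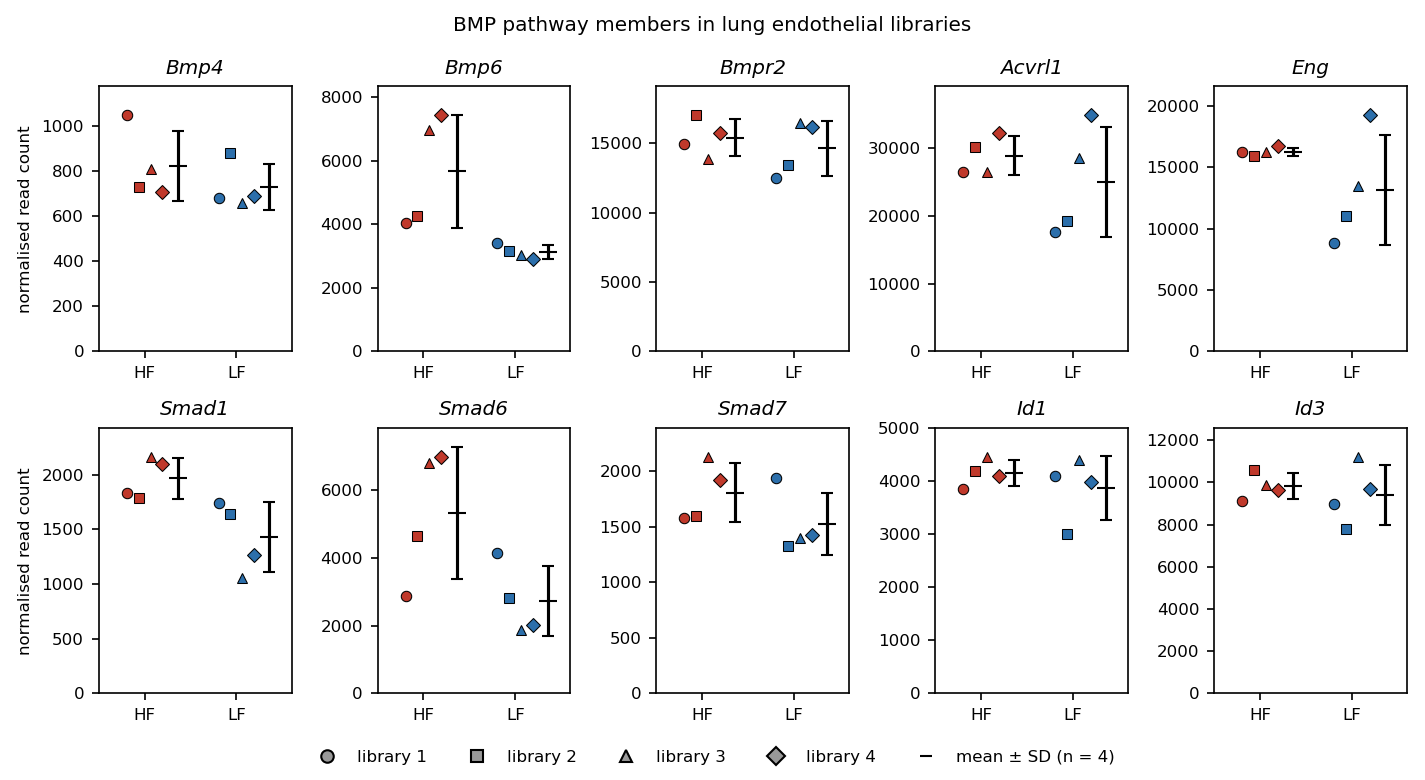
Normalised read count (y axis, from 0) of each member in the HF and LF libraries, with 1 symbol per library and the mean ± SD of 4 libraries at the right of each group. Bmp6 and Smad1 show all HF values above all LF values, while Acvrl1 and Eng are spread over a wide range in LF.

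Bmp6, a ligand that signals through type I receptors of the ALK2 and ALK3 kind, was the member with the clearest separation. It had 4041, 4249.8, 6984 and 7429.9 normalised read counts in HF 1 to HF 4, against 3404, 3149, 3052 and 2905 in LF 1 to LF 4. HF 3 and HF 4 were highest, HF 1 and HF 2 lay closer to the LF values, and the groups did not overlap. The mean was 5676 ± 1779 in HF and 3128 ± 209.8 in LF (SD, n = 4 each), a fold of 1.75 on the log2(value + 1) scale with a 95% interval of 1.31 to 2.34 (limma adjusted p = 0.164). Without HF 3 and HF 4 the log2 fold change was 0.41, against 0.81 with all libraries. Leaving out LF 1 and LF 2 gave a log2 fold change of 0.88 (limma adjusted p = 0.0515), and leaving out LF 3 and LF 4 gave 0.74 (limma adjusted p = 0.0388). Bmp6 (ENSMUSG00000039004) lies on chromosome 13 from 38345107 to 38500302, plus strand, in GENCODE M21 on GRCm38. Its exons share 224 bases with Txndc5, an endoplasmic reticulum thioredoxin gene on the other strand, which averaged 2573 ± 94.7 in HF and 1979.9 ± 370.4 in LF. The sources used here do not say whether counting used strand, so reads in those bases cannot be assigned to one of the genes.

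Bmp4, a ligand of lung mesenchyme and endothelium in development, had 1046, 727, 809 and 705 normalised read counts in HF 1 to HF 4, against 681, 878, 657 and 691 in LF 1 to LF 4. HF 1 was the highest library, LF 2 was second, and the groups overlapped. The fold was 1.12 with an interval of 0.895 to 1.41 (limma adjusted p = 0.685). The ratio of Bmp6 to Bmp4 within a library was 3.86, 5.85, 8.63 and 10.5 in HF 1 to HF 4, against 5.0, 3.58, 4.64 and 4.20 in LF 1 to LF 4. That difference did not pass an exact two-sided permutation test (p = 0.143, Benjamini-Hochberg adjusted p = 0.190 over 4 such ratios, where 4 against 4 can reach 0.0286).

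Other BMP ligands were at low levels or not detected. Bmp5 averaged 90.3 ± 9.68 in HF and 126 ± 29.0 in LF, with a fold of 0.733 (interval 0.536 to 1.0, limma adjusted p = 0.454). Bmp2, a close relative of Bmp4, averaged 43.9 ± 10.5 in HF and 31.5 ± 19.0 in LF, and Bmp3 averaged 80.7 ± 25.9 in HF and 105 ± 39.9 in LF. Gdf2 and Bmp10 encode BMP9 and BMP10, the high-affinity ligands of ALK1, which reach the lung in blood from liver and heart. Gdf2 was at 0 in all libraries but LF 1, where it was at 1.22, and Bmp10 did not exceed 1.02 in HF and 6.10 in LF. Of 6 ligands tested, Bmp4 and Bmp6 included, 3 were higher and 3 lower in HF by either mean. The median log2 fold change of the 6 was -0.10.

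The values of all 3 receptors overlapped between HF and LF. Acvrl1 had 26477, 30140.2, 26476 and 32274 normalised read counts in HF 1 to HF 4, against 17539.5, 19167, 28591 and 34796 in LF 1 to LF 4. LF 1 and LF 2 were the lowest libraries, LF 4 was the highest, and the groups overlapped. The mean was 28842 ± 2867 in HF and 25023 ± 8135 in LF, giving a fold of 1.19 with an interval of 0.860 to 1.66 (limma adjusted p = 0.669). Endoglin (Eng) had 16242, 15945, 16258 and 16737 in HF 1 to HF 4, against 8817, 11046, 13488 and 19241 in LF 1 to LF 4. Its HF libraries lay within a narrow band inside the LF range. The fold was 1.29 with an interval of 0.948 to 1.76 (limma adjusted p = 0.531). Bmpr2 had 14964, 16995, 13886 and 15746 in HF 1 to HF 4, against 12479, 13437, 16428 and 16175 in LF 1 to LF 4. Those groups overlapped as well, with a fold of 1.06 (interval 0.848 to 1.32, limma adjusted p = 0.837).

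The receptor values depended on which LF libraries were kept, in size for Eng and in sign for Acvrl1 and Bmpr2. Without LF 3 and LF 4, limma called Acvrl1 (log2 fold change 0.65, adjusted p = 0.00596) and Eng (0.72, adjusted p = 0.00360) higher in HF, along with Bmp6, in a fit that called 14.0% of all genes higher. Without LF 1 and LF 2 the log2 fold changes were -0.13 for Acvrl1, 0.02 for Eng and -0.09 for Bmpr2. That fit called 3.09% of all genes higher, among them the members Smad1 (log2 fold change 0.76, adjusted p = 0.00654) and Smad6 (1.36, adjusted p = 0.0179). The 2 fits share the HF libraries. Their LF pairs were split by the first principal component of these same libraries. The adjusted p-values of both fits, here and in the other paragraphs, are therefore only descriptive. Of the 8 endothelial markers, 7 had LF 1 and LF 2 below the other libraries, as Pecam1, the gene of CD31, at 19425 and 19737 in LF 1 and LF 2, and at 29129 and 33236 in LF 3 and LF 4. Erg, an endothelial transcription factor, had them above the other libraries, at 1044 and 1034 in LF 1 and LF 2, and at 850.1 and 845 in LF 3 and LF 4. The part of such endothelial genes in the receptor values was not tested. Acvrl1 lies on chromosome 15 from 101128522 to 101145336 and Eng on chromosome 2 from 32646595 to 32682669, both on the plus strand. They share 127 exon bases with Gm16031 and 61 with Fpgs on the other strand, and those genes averaged 12.7 ± 5.18 and 501 ± 36.8 in HF and 14.7 ± 0.960 and 523 ± 53.2 in LF.

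**Figure D2:**
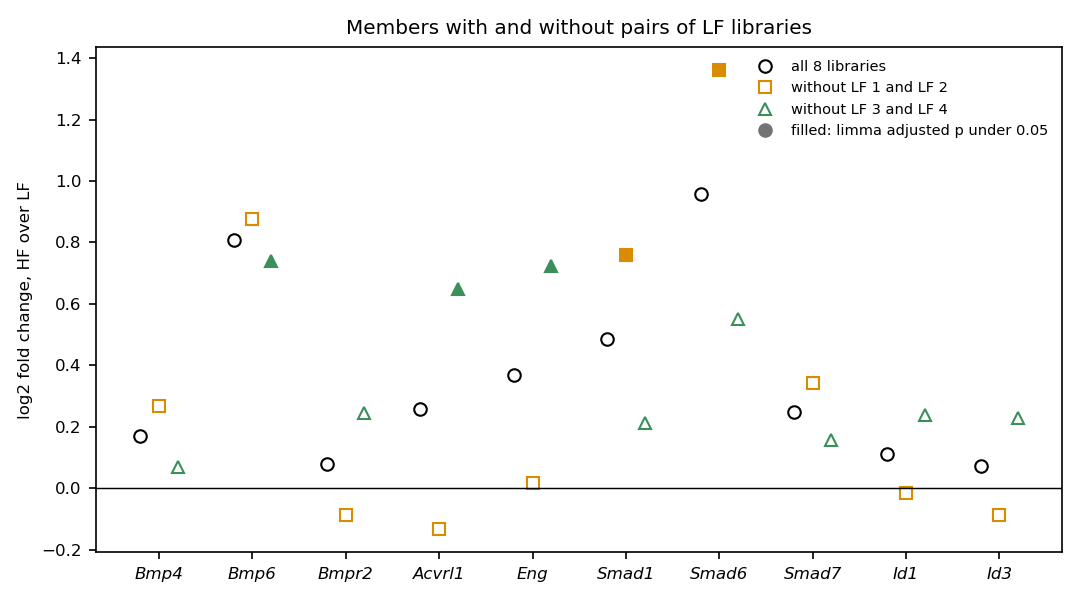
Log2 fold change of HF over LF (y axis) for each member with all 8 libraries (circles), without LF 1 and LF 2 (squares) and without LF 3 and LF 4 (triangles). Filled symbols have a limma adjusted p under 0.05. Bmp6 stays between 0.74 and 0.88, while Acvrl1 is at -0.13 without LF 1 and LF 2 and at 0.65 without LF 3 and LF 4.

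Of 9 receptors and co-receptors tested, the members Acvrl1, Eng and Bmpr2 included, 7 were higher in HF by the mean log2 value. By that measure 53.2% of all genes were higher. The 9 had a median log2 fold change of 0.09, and 6 of them were higher by the mean normalised count. Rgmb, a GPI-anchored BMP co-receptor of the repulsive guidance family, had 964, 1279.7, 1378 and 1757 normalised read counts in HF 1 to HF 4, against 879.7, 938, 739.7 and 684 in LF 1 to LF 4. HF 4 was highest, HF 1 was just above LF 2, and the groups did not overlap. The fold was 1.63 with an interval of 1.26 to 2.13 (limma adjusted p = 0.174), and the authors' deposited table gives an adjusted p of 0.0156. Acvr2a, a type II receptor of activins and BMPs, had a fold of 1.22 (interval 1.0 to 1.48, limma adjusted p = 0.441). Bmpr1a, which encodes ALK3, averaged 197 ± 12.5 in HF and 229 ± 80.9 in LF. Bmpr1b, which encodes ALK6, did not exceed 7.77 in HF and 6.47 in LF.

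Smad1, a receptor-activated transducer, had 1830.1, 1786, 2157 and 2099 normalised read counts in HF 1 to HF 4, against 1742, 1643, 1057 and 1269.9 in LF 1 to LF 4. LF 3 and LF 4 were the lowest libraries, LF 1 lay just under HF 2, and the groups did not overlap. The fold was 1.40 with an interval of 1.10 to 1.78 (limma adjusted p = 0.287). Smad5, its close paralog with the same role, had 1476, 1568, 1052 and 1253 in HF 1 to HF 4, against 1513, 1807, 1639.96 and 1538 in LF 1 to LF 4. HF 3 and HF 4 were lowest in Smad5, and the groups overlapped, with a fold of 0.816 (interval 0.662 to 1.01, limma adjusted p = 0.460). The ratio of Smad1 to Smad5 was 1.2, 1.14, 2.05 and 1.67 in HF 1 to HF 4, against 1.15, 0.910, 0.644 and 0.826 in LF 1 to LF 4. This difference did not pass the exact two-sided permutation test (p = 0.0571, Benjamini-Hochberg adjusted p = 0.171 over the 4 ratios). Smad9 averaged 81.0 ± 15.7 in HF and 73.8 ± 8.10 in LF. Smad4, the partner shared with TGF-beta signalling, had a log2 fold change of 0.01, and its sign flipped under several scalings. Smad1 (ENSMUSG00000031681) lies on chromosome 8 from 79338395 to 79399518, minus strand.

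Smad6, the inhibitory Smad that acts mainly on BMP receptors, had the largest fold among the members. It had 2871, 4639, 6805 and 6968 normalised read counts in HF 1 to HF 4, against 4134, 2830.2, 1882 and 2021 in LF 1 to LF 4. HF 3 and HF 4 were highest and LF 3 and LF 4 lowest, while HF 1 lay among the LF values, so the groups overlapped. The mean was 5321 ± 1948 in HF and 2717 ± 1033 in LF, giving a fold of 1.94 with an interval of 1.25 to 3.02 (limma adjusted p = 0.248). Without HF 3 and HF 4 the log2 fold change was 0.50, against 0.96 with all libraries, and without LF 3 and LF 4 it was 0.55 (limma adjusted p = 0.194). Smad6 (ENSMUSG00000036867) lies on chromosome 9 from 63953076 to 64022059, minus strand, and its exons overlap no other annotated gene. It is also the gene shown above with GTCTAGAC at its start, where the letters alone say nothing of binding.

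Smad7, the inhibitory Smad shared with TGF-beta and activin signalling, had 1576, 1597, 2123 and 1923 normalised read counts in HF 1 to HF 4, against 1937, 1329, 1399 and 1427 in LF 1 to LF 4. LF 1 lay among the HF values and the other LF libraries lay under all HF values. The fold was 1.19 with an interval of 0.950 to 1.49 (limma adjusted p = 0.556). The ratio of Smad6 to Smad7 was 1.82, 2.90, 3.21 and 3.62 in HF 1 to HF 4, against 2.13, 2.13, 1.35 and 1.42 in LF 1 to LF 4. The groups overlapped through HF 1, and the exact two-sided permutation test gave p = 0.0857 (Benjamini-Hochberg adjusted p = 0.171 over the 4 ratios).

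Of 9 inhibitors inside the cell, Smad6 and Smad7 included, 8 were higher in HF by either mean, with a median log2 fold change of 0.20. Of all genes tested, 53.2% were higher in HF by the mean log2 value. Smurf1, a ubiquitin ligase that marks SMAD1 and SMAD5 for degradation, had 664, 739, 897 and 1030.4 normalised read counts in HF 1 to HF 4, against 545, 595, 572 and 473 in LF 1 to LF 4. HF 3 and HF 4 were again the highest libraries, and the groups did not overlap. The fold was 1.51 with an interval of 1.20 to 1.89 (limma adjusted p = 0.179), and the authors' deposited table gives an adjusted p of 0.0247. Ppm1a, a phosphatase of receptor-activated Smads, had a fold of 1.23 (interval 0.996 to 1.53), and Smurf2 one of 1.13 (interval 0.947 to 1.34).

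**Figure D3:**
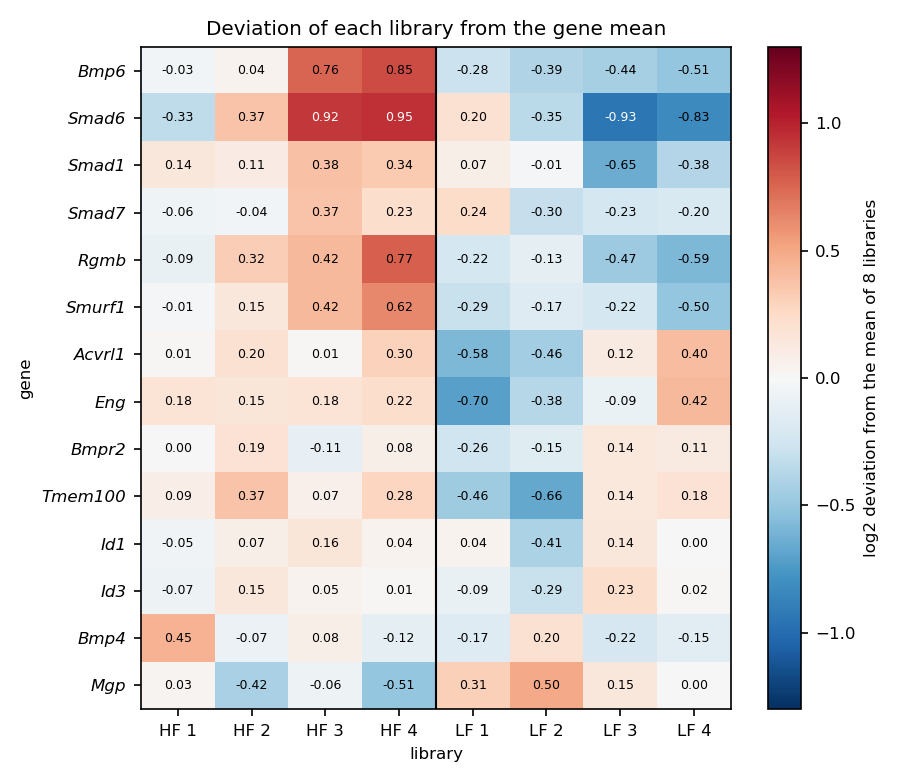
Log2 deviation of each library (columns, HF left of the line) from a gene's mean over 8 libraries, for the members and 4 genes of the role lists (rows). Bmp6 and Smad6 are at 0.76 to 0.95 in HF 3 and HF 4, and Acvrl1 and Eng are at -0.70 to -0.38 in LF 1 and LF 2.

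The Id genes encode inhibitors of basic helix-loop-helix factors and are the usual readout of SMAD1 and SMAD5 activity. Id1 had 3851, 4192, 4449 and 4108 normalised read counts in HF 1 to HF 4, against 4104, 3003, 4403 and 3983 in LF 1 to LF 4. Id3 had 9129, 10607, 9895 and 9639 in HF 1 to HF 4, against 8960.1, 7802, 11185 and 9699 in LF 1 to LF 4. In both genes LF 2 was the lowest library and the HF values lay within or near the LF range. The fold was 1.08 for Id1 (interval 0.882 to 1.32, limma adjusted p = 0.760) and 1.05 for Id3 (interval 0.852 to 1.30, limma adjusted p = 0.849). These intervals leave room for differences up to their bounds. The ratio of Id1 to Id3 was nearly constant, at 0.423 ± 0.0223 in HF and 0.412 ± 0.0326 in LF (exact two-sided permutation p = 0.514, n = 4 each). Id1 lies on chromosome 2 from 152736251 to 152737410 and Id3 on chromosome 4 from 136143497 to 136145755, both on the plus strand.

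Each of the 9 targets tested, Id1 and Id3 included, was higher in HF by the mean log2 value, and 7 were by the mean normalised count. By the mean log2 value 53.2% of all genes were higher. The 9 targets had a median log2 fold change of 0.18, and none had an unadjusted limma p under 0.05. Tmem100, a membrane protein induced by ALK1 signalling in endothelium, had 28042, 34069, 27747 and 32106 normalised read counts in HF 1 to HF 4, against 19162, 16664, 29057 and 30018 in LF 1 to LF 4. As in Acvrl1, LF 1 and LF 2 were the low libraries and the groups overlapped (fold 1.32, interval 0.967 to 1.81, limma adjusted p = 0.50). Atoh8, a helix-loop-helix factor downstream of ALK1, averaged 158 ± 33.4 in HF and 115 ± 29.0 in LF. Hes1, a repressor also driven by Notch, averaged 1482 ± 435 in HF and 1131 ± 457 in LF. Under quantile normalisation the log2 fold changes of Id1 and Id3 were -0.01 and -0.02, so their sign is not fixed by these data.

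Among secreted antagonists, 5 of 9 tested were lower in HF by the mean log2 value and 6 by the mean normalised count. Over those 9, log2 fold changes had a median of -0.21. Mgp, the matrix Gla protein that binds BMPs, had 1427, 1046, 1335 and 982 normalised read counts in HF 1 to HF 4, against 1735, 1969, 1549 and 1395 in LF 1 to LF 4. LF 4 lay under HF 1, so the groups overlapped (fold 0.718, interval 0.570 to 0.904, limma adjusted p = 0.271). Bmper averaged 85.9 ± 21.5 in HF and 132 ± 52.4 in LF, and Chrdl1, a chordin-like BMP antagonist, 55.8 ± 17.8 in HF and 80.3 ± 21.5 in LF. Most fibroblast and mural markers also had lower mean normalised counts in HF (6 and 7 of 8), with Pdgfrb at 865 to 1108 in HF and 1091 to 1914 in LF and Col3a1 at 327 to 689 in HF and 603 to 1218 in LF. The part of those cells in the antagonist values was not tested.

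**Figure D4:**
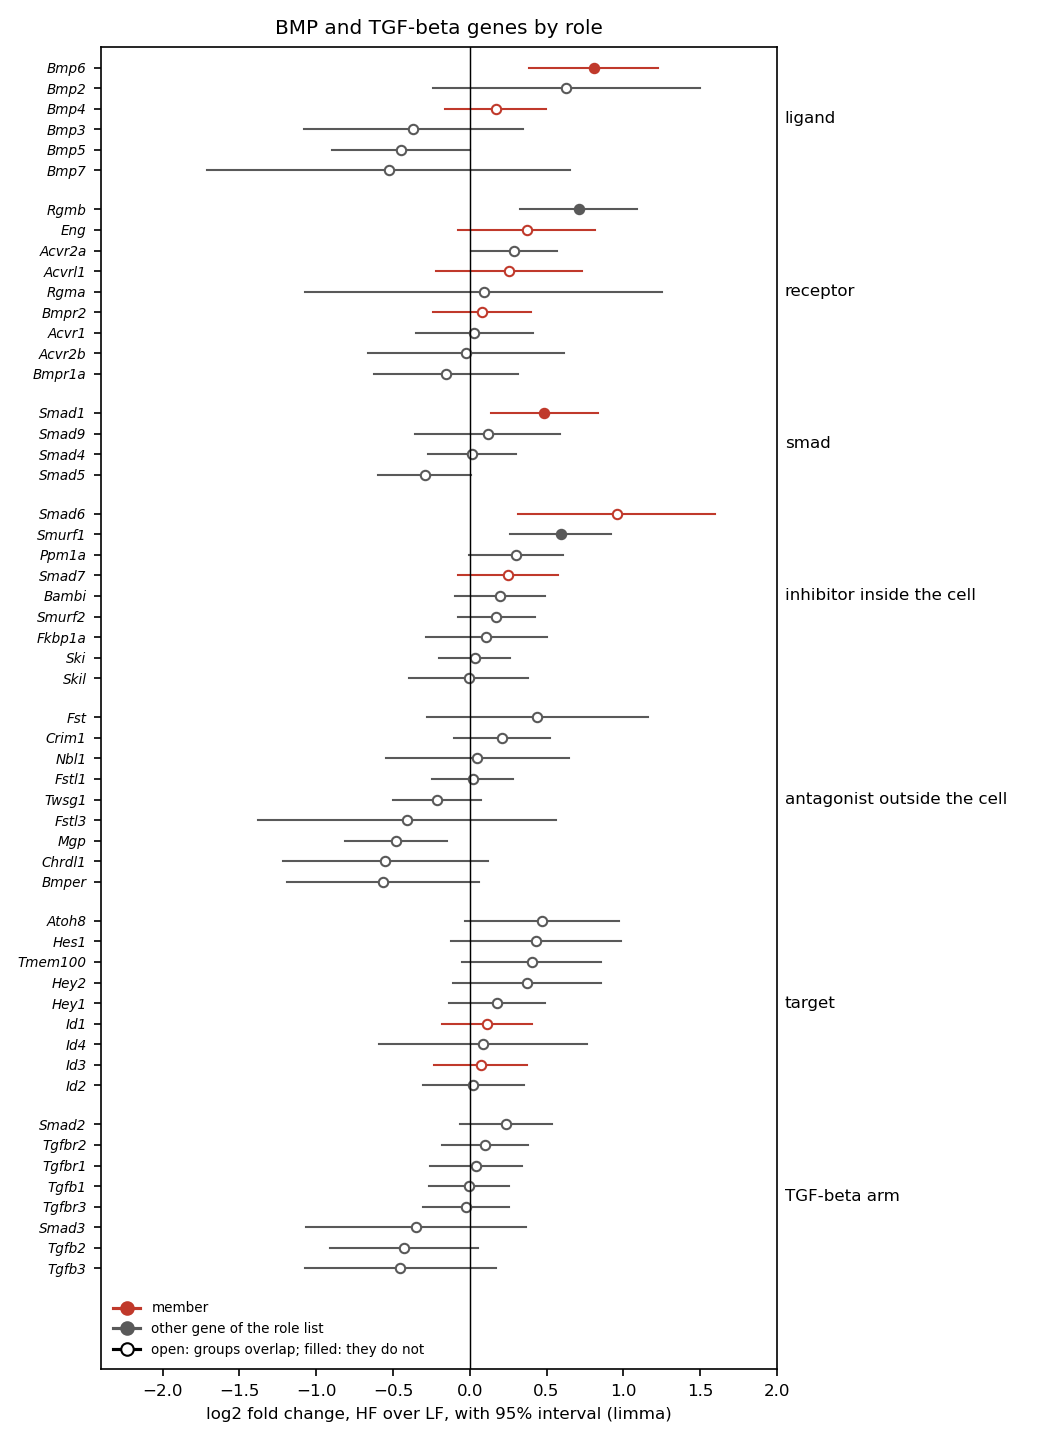
Difference between HF and LF as a log2 fold change with its 95% interval (x axis, limma, HF over LF) for 54 tested genes of the BMP and TGF-beta roles (rows). Filled points mark genes whose HF and LF values do not overlap, which are Bmp6, Rgmb, Smad1 and Smurf1, all above LF.

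Across the BMP roles together, 34 of 46 tested genes were higher in HF by the mean log2 value and 30 by the mean normalised count, and the median log2 fold change was 0.11. Without the members it was 24 of 36 by the mean log2 value and 20 by the mean normalised count, with a median log2 fold change of 0.07. Limma called none of the 46 in either direction. In 4 of the 46 the HF values lay entirely above LF, where 3.47% of all genes were arranged so. Of these 4, 2 were the members Bmp6 and Smad1, and 2 were among the 36 other genes. In the neighbouring TGF-beta arm, 3 of 8 genes were higher in HF by the mean log2 value (median log2 fold change -0.02). The ligand gene Tgfb2 had a fold of 0.743 (interval 0.531 to 1.04) and Tgfb3 one of 0.731 (interval 0.475 to 1.13). Smad2, a transducer of that arm, had a fold of 1.18 (interval 0.956 to 1.45).

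Levels per kilobase of exon put the members in nearly the same order in both groups. In HF libraries Acvrl1 was highest at 6762 ± 672 normalised counts per kb (SD, n = 4), followed by Id3 at 5482 ± 343, Eng at 4026 ± 80.9 and Id1 at 3578 ± 212. Smad6 at 1660.1 ± 608 and Bmp6 at 1455 ± 456 followed, then Bmpr2 at 856 ± 72.8, Smad7 at 399 ± 58.6, Bmp4 at 365.5 ± 69.3 and Smad1 at 314 ± 29.8. In LF libraries Acvrl1 was at 5867 ± 1907 and Id3 at 5255 ± 791 per kb, with Id1 at 3339 ± 523 and Eng at 3248 ± 1109. Below them lay Smad6 at 848 ± 322, Bmpr2 at 814 ± 109.7 and Bmp6 at 802 ± 53.8, and then Smad7 at 337 ± 61.8, Bmp4 at 323 ± 45.4 and Smad1 at 228 ± 51.2. In HF, 3 of the 9 neighbouring pairs overlapped in their library values: Smad6 with Bmp6, Smad7 with Bmp4, and Bmp4 with Smad1. In LF, 5 of the 9 did, among them Bmpr2 with both Smad6 and Bmp6. Bmp6 thus stood above Bmpr2 per kb in every HF library, while their values overlapped in LF. These levels rest on the union of all annotated exons, which for Bmpr2 is 17.983 kb.

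Genes with the profile most like that of a member were found by the root mean square difference of centred log2 values over the 8 libraries, among 10933 other genes. For Bmp6 they were Mogs, a glucosidase of glycoprotein processing (0.09), Dusp7, a phosphatase of MAP kinases (0.10), and Sdc3, a syndecan (0.10), and each had HF 3 and HF 4 as its highest libraries. For Acvrl1 they were Lrrc8c (0.03), Rdh14 (0.05) and Pttg1ip (0.05). For Id1 they were Ddx18 (0.03), Ppdpf (0.05) and Uqcr10 (0.05). With 8 libraries and this many genes, close profiles are easy to find, and the measure is given as a description.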

How the data were processed

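RNA-seq was run on sorted lung endothelial cells of 4 HF and 4 LF mice with a SMART-Seq library kit, per the labels' protocols. STAR 2.6.1b, DESeq2 1.24.0 and featureCounts 2.0.0 appear in the submitters' processing notes, with no role or order. The sources used here do not give the genome build, annotation or strand setting. Deposited values are a signal, read counts per gene divided by 1 size factor per library (0.820 to 1.27), not scaled for gene length. Multiplying by those size factors gave whole reads for 100% of values, within a tolerance of 0.01, and totals of 10631506 (LF 1) to 20781564 (HF 4). The authors' deposited table also gives the log2 fold change of HF over LF, a Wald score, p-values and adjusted p-values per gene, per the file headers.

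Gene IDs were matched to GENCODE M21 on GRCm38, which gave all coordinates and exon lengths, and 24 symbols that had been turned into dates were restored. HF and LF were compared with limma 3.58.1 in R 4.3.3, with a mean-variance trend, on log2(value + 1). Fold changes on that scale understate differences of low genes. Genes were kept where 4 or more libraries had 10 or more normalised counts, which left 17067, and p-values are two-sided and adjusted by Benjamini-Hochberg over all of them. They set the difference between HF and LF against the spread between these libraries within a group, moderated across genes. The fit was also run on simulated counts, drawn independently for each gene and library. They did not hold the splits among the LF libraries, so that run says nothing of how those splits affect the calls. edgeR 4.0.16 and DESeq2 1.42.0 served as alternatives on the recovered reads, beside other pseudocounts, filters, scalings, library weights and left-out libraries.

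The members, the role lists and the choice to leave out pairs of LF libraries were made with earlier results of these data known. The text names the 10 members, from each role list the 3 other genes with the smallest unadjusted p, and for Bmp6, Acvrl1 and Id1 the 3 genes of most similar profile. A few role genes are not reported here, and they are left out of the lists' counts and of that rule. Genes that overlap a member, undetected ligands and receptors, and the markers Pecam1, Cdh5, Erg, Pdgfrb and Col3a1 are named outside that rule, after their values were seen. Levels per kb divide normalised counts by the union of annotated exons.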

Additional observations from a re-analysis of the deposited data

Results flagged for a closer look

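Of 80 groups of 4 libraries looked at, 3 held a library far from the others in its group, where chance alone marks about 1 in 20 groups. Bmp4 was at 878 normalised read counts in LF 2, where the other LF libraries lay between 657 and 691. Smad7 was at 1937 in LF 1, where the other LF libraries lay between 1329 and 1427. Chrdl1 was at 29.1 in HF 4, where the other HF libraries lay between 63.0 and 66.1.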

How the results depend on the processing

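Of 40 genes named, 28 kept the direction of their difference in all 22 alternative fits that gave a value. Among them were Bmp4, Bmp6, Eng, Smad1, Smad6 and Smad7. The replicate block and the filters leave the log2 fold change unchanged, and other pseudocounts barely move that of abundant genes. Those fits therefore say little about direction. Limma called 0 of 17067 genes (1882 at an unadjusted p under 0.05) and edgeR 0 (1905). DESeq2 on the recovered reads called 313 of 14420 genes with an adjusted p, 1 member and 3 pathway genes. Pathway genes here are the 54 tested genes of the BMP and TGF-beta roles, and they include the members. With no filter 1 gene was called, and with 1 library left out 0 to 1. Without LF 1 and LF 2 limma called 641 genes, of which 528 (3.09% of all genes) were higher in HF. Among them were 2 of the 10 members and 5 of the 54 pathway genes, all 5 higher. Without LF 3 and LF 4 it called 3421 of the 17067 genes, of which 2393 (14.0% of all genes) were higher in HF. Among them were 3 of the 10 members and 12 of the 54 pathway genes, 9 of the 12 higher. The members' median log2 fold change was 0.13 under quantile normalisation and 0.14 without LF 1 and LF 2, against 0.25. Groups did not overlap in 927 genes, and in 1178 to 2309 with 1 library left out, where fewer libraries make an overlap less likely.

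Leaving out 1 library gave log2 fold changes of 0.66 to 0.95 for Bmp6, 0.80 to 1.22 for Smad6 and 0.35 to 0.59 for Smad1. Without HF 3 and HF 4, a choice made after seeing the data, 0 genes were called and the values were 0.41 for Bmp6, 0.50 for Smad6 and 0.37 for Smad1, and without HF 1 and HF 2, also chosen then, 1.21 for Bmp6 and 1.41 for Smad6.

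The sign turned in 12 genes, and the cause was not tested. Under quantile normalisation the log2 fold changes were -0.074 for Bmpr2, -0.0086 for Id1, -0.019 for Id3, -0.032 for Ppdpf and -0.025 for Uqcr10. Without LF 1 and LF 2 they were -0.086 for Bmpr2, -0.13 for Acvrl1, -0.015 for Id1, -0.087 for Id3, 0.19 for Bmpr1a, -0.10 for Lrrc8c, -0.13 for Rdh14, -0.11 for Pttg1ip, -0.052 for Ddx18, -0.034 for Ppdpf and -0.030 for Uqcr10. With 1 library left out, the values ran from -0.0053 to 0.18 for Id1, -0.015 to 0.16 for Id3, -0.30 to 0.057 for Bmpr1a, -0.063 to 0.10 for Smad4, -0.022 to 0.18 for Ddx18, -0.0079 to 0.14 for Ppdpf and -0.0069 to 0.16 for Uqcr10. Smad4 was at -0.013 by edgeR, -0.016 by DESeq2, -0.098 under quantile normalisation, -0.0055 with TMM rescaling, -0.0045 with library weights, -0.010 without LF 1 and LF 2 and -0.094 without HF 3 and HF 4.

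Replicate numbers do not mark shared mice or batches in the labels, and same-numbered libraries deviated with correlations of -0.222 to 0.185, with 1 HF library closest to its own number. With the replicate block limma called 0 genes, and the adjusted p was 0.332 for Bmp6, 0.40 for Smad6 and 0.404 for Smad1. A mean of at least 50 gives no value for Bmp2. Ligands and antagonists under about 10 normalised counts, and the receptor gene Bmpr1b, did not pass the filter and have no fold change here. The part of sequencing depth in their low values was not tested.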
